A study of Mus musculus with 3 samples.

Results

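The S100 genes encode small calcium-binding proteins, and 8 of them were followed across liver RNA of wild-type and TMX-null mice with and without lipopolysaccharide and D-galactosamine. These were S100a1, S100a4, S100a6, S100a8, S100a9, S100a10, S100a11 and S100a13, taken by gene symbol and chosen by their log ratios on these same arrays. Each of the 8 had 1 row in the table and a value on all 3 arrays, out of 10184 named genes with such values. The symbols were current ones, and none had to be translated from an older name.

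Liver RNA of female C57BL/6 mice was hybridised to 3 arrays with 2 channels each. The Cy3 channel held liver RNA of TMX-null mice (genotype TMX-/-) given LPS/GalN, of wild-type mice given LPS/GalN, or of untreated TMX-null mice, and the Cy5 channel of every array held RNA of untreated wild-type liver. LPS/GalN stands for 3 ng of lipopolysaccharide, a bacterial cell wall component, injected into the peritoneum with 10 mg of D-galactosamine, which sensitises the liver to it, and liver was taken 24 h later. Each group had 1 array, dyes were not exchanged, and the sources used here state neither the age of the mice nor how many mice stood behind a channel.

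Every value below is a log2 ratio over untreated wild-type liver, or a difference of such ratios, after centring each array on the median of the 10184 genes. With 1 array a group variation between mice could not be tested, so differences come without p-values. The only error at hand is the SD of a single probe over 81 genes that had 2 rows each, which was 0.76 on the TMX-null LPS/GalN array, 0.42 on the wild-type LPS/GalN array and 0.42 on the untreated TMX-null array. The signs rest on reading the ratio as sample over reference, which is likely but not stated: Tmx1, the gene of the TMX protein, stood at -3.88 in LPS/GalN-treated TMX-null liver, 0.59 in LPS/GalN-treated wild-type liver and -2.96 in untreated TMX-null liver. With the opposite numerator every direction turns.

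S100 proteins carry a pair of EF-hand motifs and mostly form dimers, which expose a binding surface for target proteins when calcium is bound. S100A8 and S100A9 join as calprotectin, an abundant cytosolic protein of neutrophils and monocytes that withholds zinc and manganese from microbes and acts outside the cell as a ligand of the receptor TLR4. S100A4 is made by fibroblasts, macrophages and other motile cells, S100A6, S100A10, S100A11 and S100A13 are found in many tissues, and S100A1 is best known from heart and skeletal muscle.

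Bases before the RefSeq start of 4 of the genes with high ratios are shown because these genes lay among the highest of all genes after LPS/GalN in TMX-null liver. They come from RefSeq (build GRCm38.p6), read 5′ to 3′ on the strand of the gene and ending at the base before the start. Capitals mark the letters TATAAA in S100a4 and S100a8, a match to the C/EBP motif in S100a9, and matches to the AP-1 motif in S100a11.
S100a4, chr3:90603650-90603769, plus strand: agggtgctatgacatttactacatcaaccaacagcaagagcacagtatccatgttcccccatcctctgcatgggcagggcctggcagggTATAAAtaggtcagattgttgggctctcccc
S100a8, chr3:90668951-90669070, plus strand: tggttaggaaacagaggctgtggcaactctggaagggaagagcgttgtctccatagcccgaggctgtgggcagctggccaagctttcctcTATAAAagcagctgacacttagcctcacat
S100a9, chr3:90695722-90695861, minus strand: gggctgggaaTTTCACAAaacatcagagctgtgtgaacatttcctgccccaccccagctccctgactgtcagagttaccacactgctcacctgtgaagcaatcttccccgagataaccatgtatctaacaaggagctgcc
S100a11, chr3:93520316-93520495, plus strand: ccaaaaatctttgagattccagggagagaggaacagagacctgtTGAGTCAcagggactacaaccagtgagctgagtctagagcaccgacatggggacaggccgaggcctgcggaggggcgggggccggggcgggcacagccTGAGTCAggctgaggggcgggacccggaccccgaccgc

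A RefSeq promoter window of 250 bases before to 50 bases after the start was found for 7 of the 8 genes, and S100a10 was the other. TATAAA on the strand of the gene began 31 bases before the start in S100a4, 30 bases before it in S100a8 and at base 1 after it in S100a9. Within 40 bases before to 10 bases after the start, 3 of the 7 windows held it and so did 2.58% of 32851 RefSeq windows. It was absent from the windows of S100a11 and S100a6, which lay high as well, and from those of S100a1 and S100a13. Both strands of the windows were also searched for 5 motifs of transcription factors. The AP-1 motif TGANTCA began 136 and 38 bases before the start of S100a11 and was met in no other of the 7 windows, against 7.81% of all windows. The C/EBP motif TTNNGNAA matched in S100a8, 117 bases before the start, and in S100a9, 236 and 130 bases before it on the other strand, and 40.7% of all windows held it. The NF-kB motif matched in S100a4 and S100a11 (20.7% of all windows), GAGGAA, searched for PU.1, in S100a4, S100a8 and S100a11 (28.3%), and ACGTG, searched for HIF, in S100a6 and S100a11 (19.6%). The motifs and the window near the start were chosen with the sequences and ratios in view, and a match of letters is not a binding site.

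In LPS/GalN-treated TMX-null liver, 6 of the 8 S100 genes were at least 2-fold higher than in untreated wild-type liver and 2 were at least 2-fold lower. The arrays chose these genes, so nothing is read from those counts, but over all genes 13.5% were at least 2-fold higher and 13.3% lower, 26.8% in all. The median of the 8 log2 ratios was 3.18 and that of all genes 0 by centring. In LPS/GalN-treated wild-type liver 1 of the 8, S100a9, was at least 2-fold higher and 0 lower (2.81% and 1.76% of all genes, 4.57% together), and 0.50 was the median of the 8. In untreated TMX-null liver 0 of the 8 passed 2-fold in either direction (1.8% of all genes higher and 0.835% lower, 2.63% together), and their median was 0.13.

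**Figure D1:**
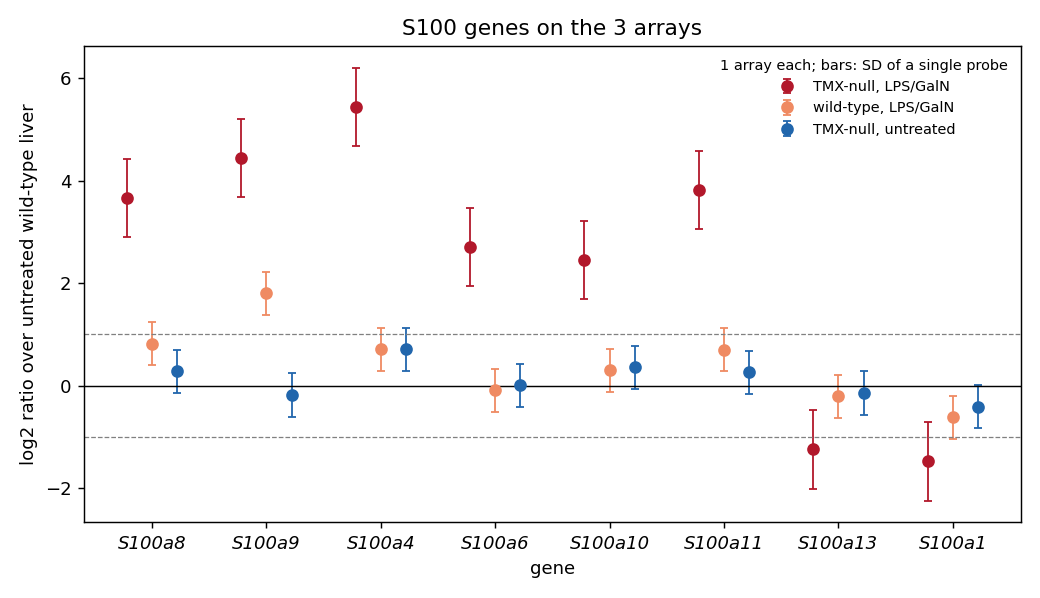
Log2 ratio over untreated wild-type liver (vertical axis) of the 8 S100 genes on the 3 arrays, 1 array for each group, with bars that span 1 probe SD each way (0.76, 0.42 and 0.42) and dashed lines at 2-fold. Values of LPS/GalN-treated TMX-null liver reach 5.44 for S100a4 and lie below -1 for S100a13 and S100a1, while S100a9 at 1.80 is the only point past 2-fold in LPS/GalN-treated wild-type liver.

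The calprotectin genes had the highest ratios of the 8 in treated wild-type liver, but only S100a9 passed 2-fold. S100a8 lay 0.11 above S100a4 there, within the SD of 0.60 between probes. S100a9 stood at 4.45 in LPS/GalN-treated TMX-null liver (21.8-fold), 1.80 in LPS/GalN-treated wild-type liver (3.48-fold) and -0.18 in untreated TMX-null liver. It was therefore high in both treated livers, at rank 5 and rank 24 of the 10184 genes, and near 0 in the untreated one. S100a8 stood at 3.66 in LPS/GalN-treated TMX-null liver (12.7-fold, rank 16), 0.82 in LPS/GalN-treated wild-type liver (1.76-fold) and 0.28 in untreated TMX-null liver. Its ratio in treated wild-type liver was 0.98 below that of S100a9, which exceeded the SD of 0.60 between probes of 1 gene on that array but not 2 such SDs. On the TMX-null LPS/GalN array the corresponding gap of 0.78 was smaller than the SD of 1.08 there.

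Against treated wild-type liver the calprotectin genes were close to each other. TMX-null minus wild-type after LPS/GalN was 2.85 for S100a8 and 2.64 for S100a9, and TMX-null after LPS/GalN minus untreated TMX-null was 3.38 for S100a8 and 4.63 for S100a9. S100a9 thus had the larger response of the 2 within TMX-null liver, by 1.25 (SD between probes 0.95), and the lesser gap to treated wild-type liver, by 0.20 (SD 0.83). The difference between the treated livers depended on the unequal spread of the arrays, whose SDs over genes were 1.04, 0.48 and 0.40. After scaling the arrays to the same SD it was 1.18 for S100a8 and 0.36 for S100a9.

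S100a4, whose protein binds non-muscle myosin IIA and is also known as FSP1 or metastasin, had the highest ratio of the 8 in TMX-null liver. It stood at 5.44 in LPS/GalN-treated TMX-null liver (43.5-fold), 0.71 in LPS/GalN-treated wild-type liver (1.64-fold) and 0.71 in untreated TMX-null liver (1.64-fold). Of all 10184 genes 1 lay higher on the first of these arrays. The values on the other arrays were alike, so that treated wild-type minus untreated TMX-null liver, a comparison without the reference RNA, was -0.0024. TMX-null after LPS/GalN exceeded treated wild-type liver by 4.73 and untreated TMX-null liver by 4.73, at rank 4 of all genes in each, and by 2.42 and 2.24 after scaling to the same SD.

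S100a4 had the highest ratio of the 3 in both TMX-null livers and the lowest in treated wild-type liver, but not every gap exceeded the SD between probes. In LPS/GalN-treated TMX-null liver it lay 1.78 above S100a8, beyond the SD of 1.08 between probes, and 0.999 above S100a9, within it. In LPS/GalN-treated wild-type liver it lay 1.09 below S100a9, beyond the SD of 0.60, and 0.11 below S100a8, within it. In untreated TMX-null liver it lay 0.90 above S100a9, beyond the SD of 0.60, and 0.43 above S100a8, within it. For neither calprotectin gene did the gaps in both treated livers exceed the SD. For the difference between the treated livers, S100a4 stood 1.89 above S100a8 and 2.09 above S100a9, each more than 2 SDs between probes (1.67). The measurement compares ratios and says nothing of which transcript was more abundant.

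**Figure D2:**
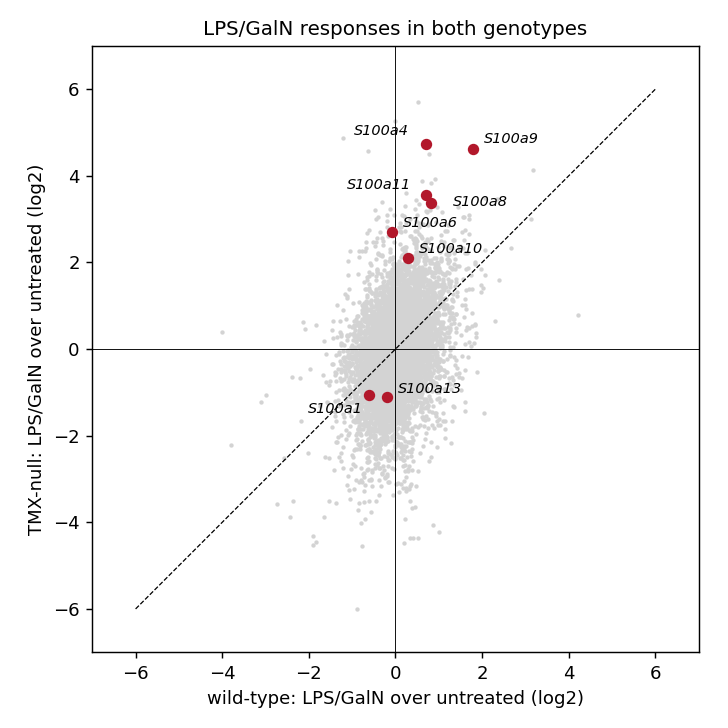
LPS/GalN over untreated liver as a log2 ratio, in TMX-null mice on the vertical axis and in wild-type mice on the horizontal axis, for the 8 S100 genes (red) and all 10184 genes (grey), with a dashed line of equal values. S100a4, S100a9, S100a11, S100a8, S100a6 and S100a10 lie far above the line, and S100a6 lies at -0.09 on the wild-type axis against 2.69 on the TMX-null axis.

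Of the widely expressed genes, S100a11, S100a6 and S100a10 lay high in treated TMX-null liver and S100a13 lay low. S100a11, whose protein binds annexin A1, stood at 3.83 in LPS/GalN-treated TMX-null liver (14.2-fold, rank 13), 0.70 in LPS/GalN-treated wild-type liver (1.63-fold) and 0.26 in untreated TMX-null liver. On the 3 arrays it differed from S100a8 by 0.16, 0.11 and 0.02, less than the SD between probes of 1 gene each time. The gene of calprotectin and the widely expressed one could therefore not be told apart by their ratios.

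S100a6 encodes calcyclin, which binds the ubiquitin ligase component CacyBP. Its ratio was 2.70 in LPS/GalN-treated TMX-null liver (6.50-fold, rank 106), -0.09 in LPS/GalN-treated wild-type liver and 0.0061 in untreated TMX-null liver. It was thus at the level of untreated wild-type liver on both other arrays, and its high value was met on the array of treated TMX-null liver alone. TMX-null minus wild-type after LPS/GalN was 2.79 for S100a6, which lay between S100a8 (2.85) and S100a9 (2.64).

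S100a10 encodes p11, a member of the family that does not bind calcium and forms a complex with annexin A2 at the cell surface. Its ratio was 2.45 in LPS/GalN-treated TMX-null liver (5.48-fold, rank 158), 0.30 in LPS/GalN-treated wild-type liver and 0.36 in untreated TMX-null liver. This was the lowest of the 6 high values, 0.25 below S100a6 and within the SD between probes. Against untreated TMX-null liver it stood at 2.09, and at 0.94, below 2-fold, after scaling the arrays to the same SD.

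S100a13 and S100a1 lay on the other side. S100a13, whose protein takes part in the release of FGF1 and interleukin 1 alpha, stood at -1.24 in LPS/GalN-treated TMX-null liver, -0.20 in LPS/GalN-treated wild-type liver and -0.14 in untreated TMX-null liver. S100a1, whose protein acts on the ryanodine receptor and the calcium pump of heart muscle, stood at -1.48 in LPS/GalN-treated TMX-null liver, -0.61 in LPS/GalN-treated wild-type liver and -0.41 in untreated TMX-null liver. Both were below 0 on every array, and the 2 genes differed by 0.23, 0.41 and 0.27, within the SD between probes on each. These were moderate values among all genes, since 6.83% of genes lay below S100a1 and 9.33% below S100a13 in treated TMX-null liver. The same genes share a start region: the RefSeq windows of S100a1 and S100a13 overlap by 204 bases, with starts 105 bases apart on opposite strands.

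The comparison of the treated livers asked how TMX-null and wild-type liver differed after LPS/GalN. At 2-fold, 6 of the 8 S100 genes were higher in TMX-null liver (9.63% of all genes) and 1, S100a13 at -1.04, was lower (10.6%; 20.3% in either direction), and S100a1 stood at -0.86. In descending order the differences of the high genes were 4.73 for S100a4, 3.12 for S100a11, 2.85 for S100a8, 2.79 for S100a6, 2.64 for S100a9 and 2.16 for S100a10. From S100a11 down to S100a10 no neighbours in that order were further apart than the SD of 0.83 between probes. S100a11 and S100a10 themselves differed by 0.97, beyond that SD. S100a4 stood 1.61 above S100a11, also beyond the SD but not beyond 2 such SDs (1.67). With arrays scaled to the same SD, 5 of the 6 stayed above 2-fold and S100a9 did not.

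Within TMX-null liver, treated over untreated, 6 of 8 were higher (11.4% of all genes) and 2 lower (12.1%; 23.5% in either direction). S100a4 (4.73) and S100a9 (4.63) differed by 0.10, followed by S100a11 at 3.56, S100a8 at 3.38, S100a6 at 2.69 and S100a10 at 2.09, while S100a1 stood at -1.07 and S100a13 at -1.10. The difference of the responses, TMX-null minus wild-type, uses the reference RNA in 1 term and passed 2-fold upward in 6 of 8 (9.81% of all genes) and downward in 0 (11.6%; 21.4% in either direction). It was 4.02 for S100a4, between 2.56 and 2.86 for S100a8, S100a6, S100a9 and S100a11, and 1.79 for S100a10. Scaled to the same SD, 3 of the 6 stayed above 2-fold, namely S100a6 at 1.78, S100a4 at 1.29 and S100a11 at 1.01.

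**Figure D3:**
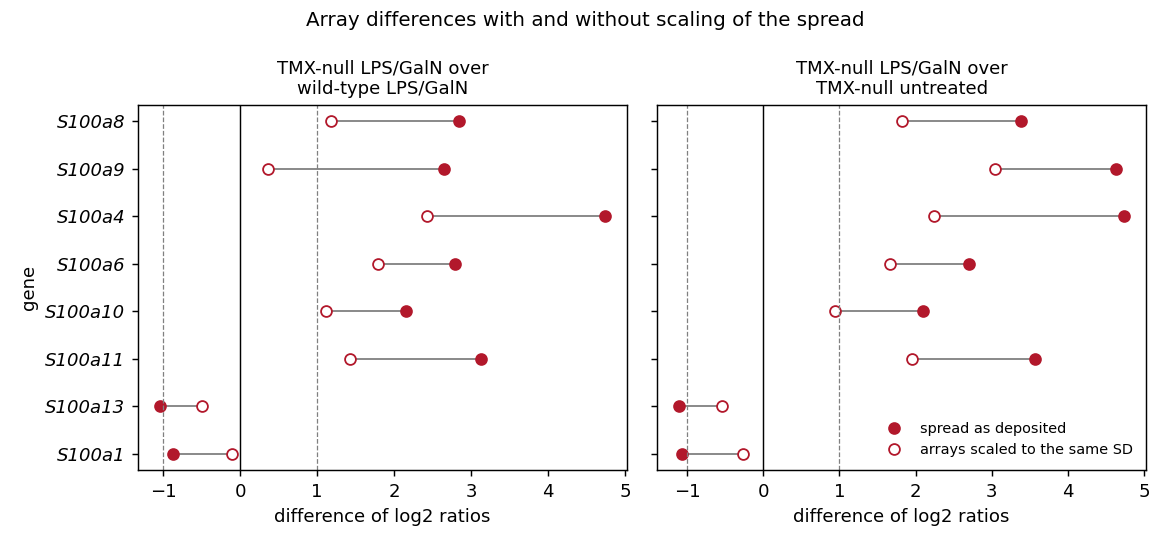
Differences of log2 ratios (horizontal axis) for the 8 S100 genes, TMX-null LPS/GalN over wild-type LPS/GalN on the left and over untreated TMX-null on the right, with filled points for the spread as deposited, open points for arrays scaled to the same SD and dashed lines at 2-fold. S100a9 stands at 2.64 as deposited and 0.36 after scaling in the left panel, and at 4.63 as deposited and 3.04 after scaling in the right one.

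Of the other S100 genes of the array, S100a3 was also high in treated TMX-null liver, and S100a5 and S100b stayed within 2-fold on all arrays. S100a5 stood at 0.15 in LPS/GalN-treated TMX-null liver, -0.20 in LPS/GalN-treated wild-type liver and -0.32 in untreated TMX-null liver, and S100b at -0.46, -0.10 and 0.37 on the arrays in that order. With these, 6 of the 10 S100 genes measured on all 3 arrays were at least 2-fold higher in treated TMX-null liver and 2 lower. S100a3 stood at 1.61 in LPS/GalN-treated TMX-null liver and 0.96 in LPS/GalN-treated wild-type liver and was blank in untreated TMX-null liver, and S100g and S100a14 were blank throughout. A row annotated S100a15 (-0.82, -0.31 and -0.25) was not assigned, since that name is an older one of several genes.

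The counts for gene lists below stand against the shares of all genes at 2-fold: 13.5% higher and 13.3% lower in treated TMX-null liver, 2.81% and 1.76% in treated wild-type liver, and 1.8% and 0.835% in untreated TMX-null liver. No list was tested against these shares.

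Receptors through which extracellular S100 proteins are known to signal were partly high in treated TMX-null liver. Of 7 measured on all arrays, 4 were at least 2-fold higher there and 0 lower, with a median of 1.14, against 0 in either direction in treated wild-type liver (median -0.19) and 0 in untreated TMX-null liver (median 0.11). Cd14, a co-receptor for lipopolysaccharide, stood at 3.46 in LPS/GalN-treated TMX-null liver, 0.48 in LPS/GalN-treated wild-type liver and 0.01 in untreated TMX-null liver. Cd36, a scavenger receptor, stood at 1.92, -0.19 and 0.17 on these arrays. Tlr4 (1.14, 0.38 and 0.50) and its partner Ly96 (1.22, 0.40 and 0.11) passed 2-fold narrowly and only in treated TMX-null liver, while the adaptor gene Myd88 (0.80, -0.20 and 0.07) did not pass. Ager, the gene of the receptor RAGE, stood at 0.01 in LPS/GalN-treated TMX-null liver and 0.29 in LPS/GalN-treated wild-type liver and was blank in the other. Bsg (-0.79, -0.64 and -0.53) and Mcam (-0.22, -0.24 and 0.16) stayed within 2-fold on every array.

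**Figure D4:**
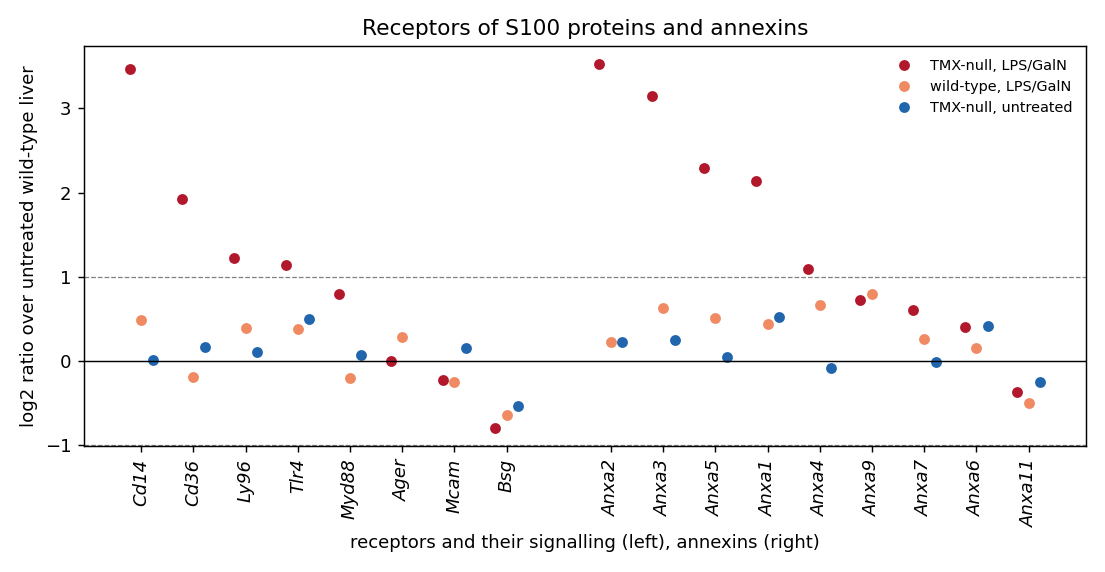
Log2 ratio over untreated wild-type liver (vertical axis) of receptors and their signalling genes and of annexins on the 3 arrays, with dashed lines at 2-fold and no point where a value is blank. Cd14 at 3.46, Anxa2 at 3.52 and Anxa3 at 3.14 are the highest points, all from LPS/GalN-treated TMX-null liver.

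Annexins, the calcium-dependent membrane proteins that several S100 proteins bind, were high on the same array. Of 8 measured on all arrays, 5 were at least 2-fold higher and 0 lower in treated TMX-null liver (median 1.61), against 0 in treated wild-type liver (median 0.35) and 0 in untreated TMX-null liver (median 0.14). Anxa2, the partner of S100a10, stood at 3.52 in LPS/GalN-treated TMX-null liver, 0.23 in LPS/GalN-treated wild-type liver and 0.23 in untreated TMX-null liver. Anxa1, the partner of S100a11, stood at 2.14, 0.44 and 0.53 on these arrays. Anxa3 (3.14), Anxa5 (2.29) and Anxa4 (1.09) also passed 2-fold in treated TMX-null liver, where Anxa7 (0.61), Anxa6 (0.41) and Anxa11 (-0.37) did not.

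Genes of the plasminogen system, which binds to p11 and annexin A2, did not share 1 direction. Plaur, the receptor of urokinase, stood at 2.59 in LPS/GalN-treated TMX-null liver, -0.66 in LPS/GalN-treated wild-type liver and -0.08 in untreated TMX-null liver. Plat, the tissue activator, stood at 3.28 in LPS/GalN-treated TMX-null liver and 1.59 in LPS/GalN-treated wild-type liver and was blank in the other. Plau, urokinase, stood at 0.86 in LPS/GalN-treated TMX-null liver and 1.27 in untreated TMX-null liver and was blank in treated wild-type liver. Plg, plasminogen itself and a secreted product of hepatocytes, stood at -1.62, -0.09 and -0.10.

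Over the 11 targets and partners measured on all arrays, Plaur and Plg included, 6 were at least 2-fold higher and 2 lower in treated TMX-null liver (median 1.26). For S100A4, Myh9 (myosin IIA) stood at 1.85 in LPS/GalN-treated TMX-null liver, 0.41 in LPS/GalN-treated wild-type liver and 0.06 in untreated TMX-null liver, and the liprin gene Ppfibp1 at 2.29, 0.60 and 0.38. For S100A6, Cacybp stood at 1.26, 0.73 and 0.04 and Sugt1 at 1.78, 0.80 and 0.84. For S100A13, Fgf1 stood at -0.77, 0.48 and 0.05, the synaptotagmin gene Syt1 at -2.43, 0.30 and 0.39 and Il1a at 0.91, 0.30 and 0.43. For S100A1, Atp2a2, the calcium pump gene, stood at 0.21, 0.10 and -0.41. The ryanodine receptor genes Ryr1 (1.58 and 1.54) and Ryr2 (2.10 and 2.12) passed 2-fold in treated TMX-null and treated wild-type liver. Both were blank in untreated TMX-null liver, and their values cannot be set against a background level, since intensities were not used here. Treated TMX-null liver thus held high and low ratios among the partners, as among the S100 genes.

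Other EF-hand genes were less uniform. Of 23, 7 were at least 2-fold higher and 3 lower in treated TMX-null liver (median 0.52), 1 higher and 2 lower in treated wild-type liver (median 0.07) and 0 in either direction in untreated TMX-null liver (median 0.0047). The largest ratios in treated TMX-null liver were those of Efhd2 (2.62), Nucb2 (1.71), the macrophage gene Aif1 (1.58) and the neuronal sensor gene Ncald (-1.57).

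Calprotectin works by withholding metals, and genes of that function were mixed. Of 9, 4 were at least 2-fold higher and 1 lower in treated TMX-null liver, against 2 higher and 2 lower in treated wild-type liver and 0 higher and 2 lower in untreated TMX-null liver. Hamp, the gene of the iron hormone hepcidin, stood at -0.88 in LPS/GalN-treated TMX-null liver, -3.99 in LPS/GalN-treated wild-type liver and -1.27 in untreated TMX-null liver, and its relative Hamp2 at -3.23, -3.80 and -1.02. These were the lowest ratios of the list on all arrays. Lcn2, which captures bacterial iron carriers, stood at 2.27 in LPS/GalN-treated TMX-null liver, 1.35 in LPS/GalN-treated wild-type liver and 0.05 in untreated TMX-null liver, the order in which S100a9 stood. The zinc importer gene Slc39a14 stood at 1.18, 0.07 and -0.13, and the metallothionein gene Mt2 at 1.64, 0.42 and 0.86. Their relatives Slc39a4 (0.51, 0.27 and -0.10) and Mt1 (0.11, -0.64 and 0.16) stayed within 2-fold on every array.

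Transcription factors reported at S100a8, S100a9 or S100a4 lay on both sides of 0. Of 10, 3 were at least 2-fold higher and 2 lower in treated TMX-null liver (median 0.65). Spi1, which encodes PU.1 of myeloid cells, stood at 1.70 in LPS/GalN-treated TMX-null liver, 0.34 in LPS/GalN-treated wild-type liver and -0.92 in untreated TMX-null liver. Hif1a (1.25, 0.20 and 0.01) and Nfkb1 (1.22, -0.21 and 0.18) were the other high ones. The lower ones were Cebpa, a C/EBP factor of hepatocytes and myeloid precursors (-1.89, -1.11 and -0.65), and Cebpe, one of granulocyte precursors (-1.55, 0.66 and 0.23), whereas Cebpb stood at 0.62, 0.42 and 0.25.

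Markers of cells that can carry S100 proteins were set beside these ratios. In whole liver, fewer cells of a type and less RNA per cell cannot be told apart, and the part of the markers in the ratios of the S100 genes was not tested. Of 14 neutrophil genes, 3 had values on all arrays: Csf3r, a growth factor receptor, stood at 2.66 in LPS/GalN-treated TMX-null liver, -0.30 in LPS/GalN-treated wild-type liver and -0.74 in untreated TMX-null liver, Ly6g at -2.50, -0.89 and -0.19, and Retnlg at 0.51, -0.36 and -0.06. The granule genes Mpo and Ngp were blank on all arrays, and Mmp8 had a value in treated wild-type liver alone (1.97). Prtn3 stood at 2.06 in LPS/GalN-treated TMX-null liver and 0.97 in LPS/GalN-treated wild-type liver. Mmp9 stood at 1.62 and 1.42 and Ltf at 1.39 and 1.29 on these arrays. Prtn3, Mmp9 and Ltf were blank in untreated TMX-null liver. Among the neutrophil genes with a value in treated TMX-null liver, Ly6g alone lay below untreated wild-type liver.

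Of the monocyte genes with values on every array, 2 of 3 were at least 2-fold higher in treated TMX-null liver. Ly6c1 stood at 2.41 in LPS/GalN-treated TMX-null liver, 0.98 in LPS/GalN-treated wild-type liver and 0.93 in untreated TMX-null liver, Plac8 at 2.16, 0.47 and 0.17, and Vcan at 0.58, -0.13 and -0.25. Ccr2, the receptor of the chemokine CCL2, stood at 4.18 in LPS/GalN-treated TMX-null liver and 2.03 in LPS/GalN-treated wild-type liver and was blank in the other. Chil3 (8.10), Itgam (2.55) and F13a1 (1.52) had a value in treated TMX-null liver alone. Cx3cr1 stood at 0.98 in LPS/GalN-treated TMX-null liver and 0.95 in untreated TMX-null liver and was blank in treated wild-type liver. Values of genes with blanks cannot be set against a background level, since intensities were not used here.

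Most macrophage markers were high in both treated livers. Of 13, 9 were at least 2-fold higher in treated TMX-null liver (median 1.29), 9 in treated wild-type liver (median 1.16) and 3 in untreated TMX-null liver (median 0.79), and TMX-null minus wild-type after LPS/GalN had a median difference of 0.12 with 1 of 13 past 2-fold. Cd68 was the 1 marker past 2-fold in that difference, at 1.64. Of all genes 9.63% were at least 2-fold higher in it and 10.6% lower, 20.3% in either direction. The 6 high S100 genes differed between the treated livers by 2.16 to 4.73. They were chosen by their ratios on these arrays, so nothing is read from the gap to the marker median. The part of macrophages in the S100 ratios was not tested. Marco stood at 4.10 in LPS/GalN-treated TMX-null liver, 3.13 in LPS/GalN-treated wild-type liver and 1.10 in untreated TMX-null liver. Cd68 (2.80, 1.16 and 0.59), Cd5l (2.65, 1.77 and 1.25) and Adgre1 (1.51, 1.31 and 0.37) were high in both treated livers too. Mrc1 (-0.45, -0.26 and -0.43), Csf1r (-0.19, 0.03 and 0.23) and Clec4f (0.03, 0.68 and 0.50), named after their values were seen, stayed within 2-fold on every array.

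Markers of stellate cells and fibroblasts, which can carry S100a4 and S100a6, were at least 2-fold higher in 6 of 8 in treated TMX-null liver (median 1.27), 1 of 8 in treated wild-type liver (median 0.53) and 0 of 8 in untreated TMX-null liver (median 0.32). Acta2 stood at 3.31 in LPS/GalN-treated TMX-null liver, 0.96 in LPS/GalN-treated wild-type liver and 0.02 in untreated TMX-null liver, and Vim at 3.25, 0.53 and 0.42. Timp1 stood at 4.07 in LPS/GalN-treated TMX-null liver and 1.79 in LPS/GalN-treated wild-type liver and was blank in the other. Des (1.82) had a value in treated TMX-null liver alone, and Lrat (1.56) and Col1a1 (-0.51) in treated wild-type liver alone. Lum (1.31, 1.23 and 0.65) and Dcn (0.76, 0.51 and 0.42) differed little between the treated livers. TMX-null minus wild-type after LPS/GalN was above 0 in 8 of 8, from 0.08 for Lum to 2.71 for Vim. Its median was 0.98, against 0.0097 for all genes. At 2-fold 4 of 8 were higher and 0 lower in that difference, against 9.63% and 10.6% of all genes. A link between these markers and the S100 ratios was not tested.

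Of 7 cholangiocyte markers, 1 was at least 2-fold higher (Spp1, 1.65) and 1 lower (Cftr, -1.22) in treated TMX-null liver (median 0.34), close to the shares of all genes, and Krt19 stood at 0.06. Endothelial markers were 2-fold higher in 2 of 6 (median 0.24), T and NK cell markers in 3 of 6 (median 1.36) and B cell markers in 1 of 3 (median 0.40), with 0 lower in each. Of the hepatocyte markers 5 of 8 were at least 2-fold lower and 0 higher in treated TMX-null liver (median -1.67), 4 lower in treated wild-type liver (median -0.61) and 0 in untreated TMX-null liver (median -0.63), with Alb at -1.84, -1.06 and -0.73. Apob was the only one of the 8 that did not have its lowest ratio in treated TMX-null liver. It stood at -0.15 in LPS/GalN-treated TMX-null liver, 0.41 in LPS/GalN-treated wild-type liver and -0.53 in untreated TMX-null liver. S100a1 and S100a13 were lowest on the array on which the median of the hepatocyte markers was lowest. That array also had the widest spread, with an SD over genes of 1.04. After scaling the arrays to the same SD, S100a1 stood at -0.91 and S100a13 at -0.77 there, within 2-fold. A link to the hepatocyte markers was not tested.

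Position along the chromosome was compared with the ratios through RefSeq gene order. All 8 genes lie on mouse chromosome 3, in the order S100a1, S100a13, S100a4, S100a6, S100a8, S100a9, S100a11 and S100a10. S100a8 and S100a9 are neighbours with 0 protein-coding genes between them, as are S100a1 and S100a13, and S100a11 and S100a10, whereas 56 genes, among them Lor and Sprr genes of the skin barrier, separate S100a9 from S100a11. The low pair of genes stood at the beginning of the cluster, next to Chtop, which stood at 0.24 in LPS/GalN-treated TMX-null liver, 0.26 in LPS/GalN-treated wild-type liver and 0.02 in untreated TMX-null liver.

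Of 62 other genes within the cluster 7 had values on all arrays, and in treated TMX-null liver 1 of these was at least 2-fold higher (Sprr1a, 2.00) and 2 lower (Lce1f, -1.75, and Lce1l, -2.10). S100a5 at 0.15 lay between S100a4 at 5.44 and S100a6 at 2.70. High ratios were therefore not shared by all measured genes of the stretch. Genes with a blank on any array are outside that count of 7, and several of these were high in treated TMX-null liver. Ivl, which encodes involucrin of the epidermis, stood at 4.30 in LPS/GalN-treated TMX-null liver and 1.10 in LPS/GalN-treated wild-type liver and was blank in the other. Sprr2f (2.77), Crct1 (2.54) and Sprr2d (1.25) had a value in treated TMX-null liver alone. S100a3 stood at 1.61 there, and Lelp1 (-0.54) and Sprr2k (-0.10) stayed within 2-fold. Such values cannot be set against a background level, since intensities were not used here.

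**Figure D5:**
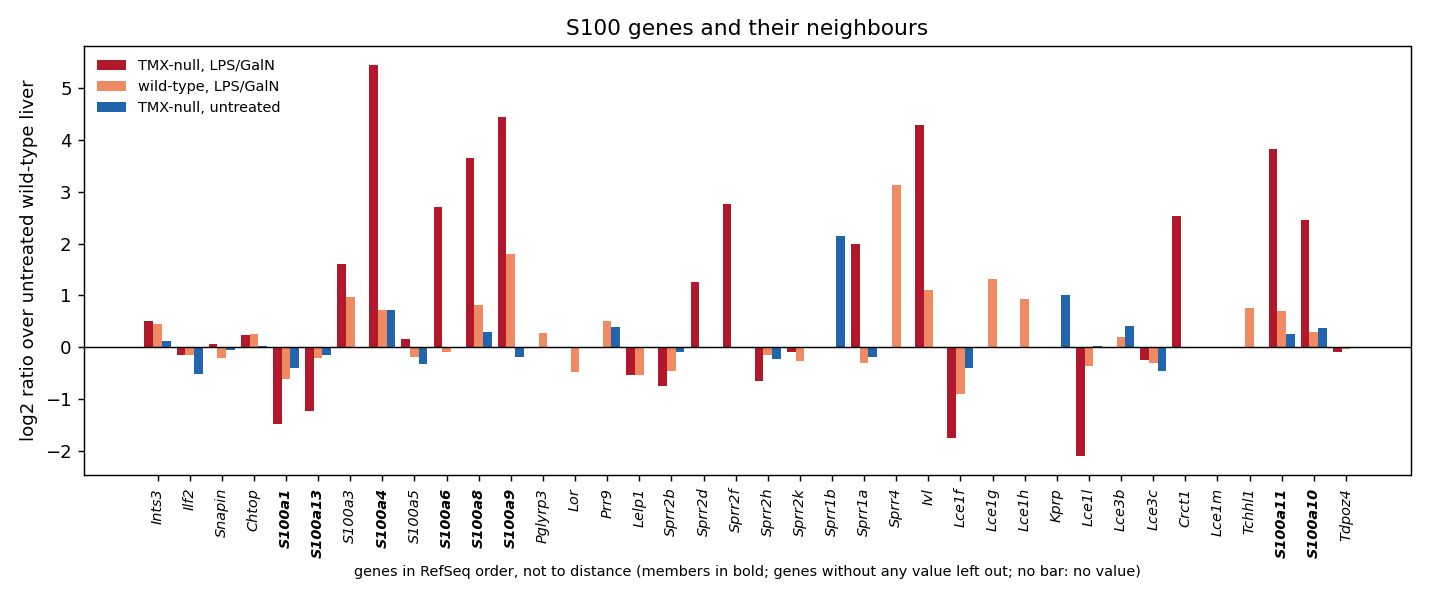
Log2 ratio over untreated wild-type liver (vertical axis) on the 3 arrays for the S100 genes (bold) and their neighbours in RefSeq order, not to distance, with genes that have no value left out and no bar where a value is blank. Bars of LPS/GalN-treated TMX-null liver stand at 5.44 for S100a4, 0.15 for S100a5 and 2.70 for S100a6, which follow each other in the plot.

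The genes with the pattern most like S100a4, S100a8 and S100a9 were taken as the 5 at the smallest Euclidean distance over the 3 arrays, which rests on 3 values for each gene. For S100a4 these were Tnfrsf12a (distance 0.59), Ccl2 (0.83), Ly6d (1.05), Ier3 (1.10) and Slc25a24 (1.63). Tnfrsf12a, the receptor of the cytokine TWEAK, stood at 4.93 in LPS/GalN-treated TMX-null liver, 0.78 in LPS/GalN-treated wild-type liver and 0.43 in untreated TMX-null liver. For S100a8 they were the tubulin gene Tubb6 (0.05), S100a11 (0.20), Armcx4 (0.33), Bcl2a1c (0.38) and Slc25a24 (0.39). S100a9 had no such close match, with the chemokine gene Ccl6 (1.02), Ier3 (1.10), Ifi27l2b (1.10), Lpl (1.15) and Rgs1 (1.18), of which Ccl6 stood at 3.84 in LPS/GalN-treated TMX-null liver, 1.44 in LPS/GalN-treated wild-type liver and 0.55 in untreated TMX-null liver.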

How the data were processed

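The authors deposited 1 table of log ratios for the 3 arrays, read here as log2. The sources used here do not state its log base, numerator, image analysis, background correction or reason for blanks. Total RNA was extracted, amplified as amino allyl RNA and dye-coupled following Toray, per the labels' protocols. Of 23473 rows, 16187 held a value in TMX-null LPS/GalN, 16890 in wild-type LPS/GalN and 15446 in untreated TMX-null liver. GEO's platform annotation named 16631 rows, and 3947 of these names were updated through the mouse RefSeq table of GRCm38.p6. Rows of a gene were averaged and each array was centred on its median over 10184 genes with values on all arrays (-0.07, -0.04 and -0.03). Blanks stayed missing. Genes were counted at 2-fold, with no test, since each group had 1 array. The number of arrays limits the precision. Steps were run in Python 3.11.15 with pandas 2.3.3 and tested on simulated data. The members and gene lists were chosen with earlier results of these data known, and the promoter motifs after seeing the sequences. All members are named. Any gene could be named from lists of up to 10 measured genes, and only some were. From longer lists the 4 largest ratios and known binding partners were named, and for S100a4, S100a8 and S100a9 the 5 nearest patterns. Alternatives changed the centring, spread, probe choice, threshold, log base, numerator, untreated control and genes taken.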

Additional observations from a re-analysis of the deposited data

Results flagged for a closer look

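For 4 of the S100 genes and their receptors, annexins and partners the response to LPS/GalN had opposite signs in the 2 genotypes and passed 2-fold in at least 1 of them. Each rests on 1 array a group, and the difference was not tested. S100a6 responded by 2.69 in TMX-null and -0.09 in wild-type liver, a difference of 2.78. Cd36 responded by 1.75 in TMX-null and -0.19 in wild-type liver, a difference of 1.94. Plaur responded by 2.67 in TMX-null and -0.66 in wild-type liver, a difference of 3.34. Syt1 responded by -2.82 in TMX-null and 0.30 in wild-type liver, a difference of -3.11. The wild-type responses of S100a6, Cd36 and Syt1 were smaller than the SD of a single probe on that array (0.42), so their signs are not established. That of Plaur exceeded this SD but not 2 such SDs, so its sign is uncertain too.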

How the results depend on the processing

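No paired analysis was possible because each group had 1 array. Without centring, the counts of S100 genes past 2-fold were as reported. Taking the probe with the largest absolute ratio could not change a member's choice of probe, since each has 1 row, and shows nothing of stability. With arrays scaled to the same SD, the number 2-fold lower was 0 in treated TMX-null liver against untreated wild-type, untreated TMX-null and treated wild-type liver alike, the number higher was 2 in treated wild-type and 1 in untreated TMX-null liver, and 3 for the difference of responses. At 3-fold, 0 were lower in each of those same 3 comparisons. With a natural log, 4 were higher in treated wild-type liver, 1 in untreated TMX-null liver, 2 were lower between the treated livers and 1 in the difference of responses. Over all genes, scaling gave 10.5%, 10.1% and 10.4% past 2-fold on the 3 arrays. That the arrays differ in spread, and that no signal or background values are at hand, limits every size given. With the numerator turned, the number higher would be 2 in treated TMX-null liver, 0 in treated wild-type liver, 2 within TMX-null liver, 1 between treated livers and 0 for the difference of responses, and the number lower 6, 1, 6, 6 and 6. S100a1, S100a4, S100a6, S100a8, S100a9, S100a10, S100a11 and S100a13 would then stand at 1.48, -5.44, -2.70, -3.66, -4.45, -2.45, -3.83 and 1.24 in treated TMX-null liver and at 1.07, -4.73, -2.69, -3.38, -4.63, -2.09, -3.56 and 1.10 within TMX-null liver. S100a4, S100a6, S100a8, S100a9, S100a10 and S100a11 would stand at -4.73, -2.79, -2.85, -2.64, -2.16 and -3.12 between the treated livers, with S100a13 at 1.04, and at -4.02, -2.78, -2.56, -2.83, -1.79 and -2.86 for the difference of responses, and S100a9 at -1.80 in treated wild-type liver.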
